A study of Mus musculus with 4 samples.

Results

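Mki67, Top2a, Cdk1, Ccnb1 and Aurkb are genes switched on as cells approach and pass through division, and they are used here to ask whether the loss of m6A peaks from Mki67 went with a change in the amount of its transcript. They are 5 of the 37315 Ensembl gene identifiers in the input counts, taken by a fixed list of identifiers, and the m6A peaks counted for them are those whose midpoint lies in their mm10 gene spans, 8 of 31856 entacapone peaks and 13 of 22860 vehicle peaks. The genes were selected on the Mki67 peak numbers of these same lists, chosen by the loss of peaks in the entacapone list, so those numbers are given as a description and support nothing by themselves. The data are 4 libraries of inguinal white adipose tissue, taken from male C57BL/6 mice that were 23 weeks old and obese from a high-fat diet: an input and an m6A immunoprecipitate (IP) from entacapone-treated mice, and an input and an IP from vehicle-treated mice. Entacapone is a Parkinson's disease drug that blocks catechol-O-methyltransferase and was later reported to inhibit FTO, an enzyme that removes m6A. All mice shared the diet, strain, sex and age, and the labels give neither the dose nor the number of animals in a library. With 1 library of each kind the differences have no replicate check and no p-value is given, and every interval below is a 95% interval that covers counting error only.

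N6-methyladenosine (m6A) is a methyl mark that a methyltransferase complex places on adenosines of messenger RNA, often in long exons and near stop codons, and that reader proteins use to steer splicing, translation and decay. In m6A sequencing, fragments pulled down by an antibody are set against the input RNA, and a peak is a stretch where the IP is enriched. Mki67 (ENSMUSG00000031004) encodes Ki-67, the protein that coats mitotic chromosomes and serves as the standard marker of cycling cells. Top2a (ENSMUSG00000020914) encodes the topoisomerase that untangles sister chromatids. Cdk1 (ENSMUSG00000019942) encodes the kinase that drives entry into mitosis, Ccnb1 (ENSMUSG00000041431) encodes cyclin B1, its activating partner, and Aurkb (ENSMUSG00000020897) encodes the kinase of the chromosomal passenger complex, which corrects the attachment of chromosomes to the spindle. Mature adipocytes do not divide, and dividing cells of fat tissue are known to include progenitors, endothelial cells, macrophages and lymphocytes of the inguinal lymph node.

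Some mitotic genes share promoter elements, and the 250 bases before the start site are shown for the 4 members that the RefSeq promoter table (GRCm38.p6, the assembly called mm10) lists. Capitals mark every TTTGAA or TTCAAA, the core of the cell cycle genes homology region (CHR) on either strand, and every CCAAT or ATTGG, the CCAAT box on either strand. No base belonged to both motifs.
Mki67, chr7:135716380-135716629, minus strand: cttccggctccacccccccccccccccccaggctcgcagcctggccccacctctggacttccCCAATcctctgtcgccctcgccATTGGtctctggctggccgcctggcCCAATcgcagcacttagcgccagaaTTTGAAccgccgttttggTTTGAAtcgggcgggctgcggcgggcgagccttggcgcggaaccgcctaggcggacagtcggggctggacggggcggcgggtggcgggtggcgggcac
Top2a, chr11:99024190-99024439, minus strand: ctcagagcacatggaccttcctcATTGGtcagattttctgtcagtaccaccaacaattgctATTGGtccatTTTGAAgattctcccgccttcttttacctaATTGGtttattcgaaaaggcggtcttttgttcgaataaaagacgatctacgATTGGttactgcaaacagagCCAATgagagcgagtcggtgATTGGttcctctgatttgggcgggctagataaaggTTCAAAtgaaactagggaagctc
Cdk1, chr10:69352913-69353162, minus strand: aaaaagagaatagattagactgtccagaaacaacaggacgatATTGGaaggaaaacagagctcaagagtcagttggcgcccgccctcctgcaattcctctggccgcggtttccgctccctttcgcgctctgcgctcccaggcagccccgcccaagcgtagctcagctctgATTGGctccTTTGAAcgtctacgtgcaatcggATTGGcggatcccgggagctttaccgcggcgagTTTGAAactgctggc
Ccnb1, chr13:100786487-100786736, minus strand: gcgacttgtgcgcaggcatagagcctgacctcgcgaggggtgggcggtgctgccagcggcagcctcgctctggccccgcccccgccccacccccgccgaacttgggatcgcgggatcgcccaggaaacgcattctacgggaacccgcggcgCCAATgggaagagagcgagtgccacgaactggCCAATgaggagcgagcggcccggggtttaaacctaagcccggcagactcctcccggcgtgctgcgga
CHR letters were present in 3 of these 4 promoters, 2 matches each in Mki67, Top2a and Cdk1, against 16.0% of 32851 RefSeq promoters of the same length. At least 2 CCAAT boxes were present in all 4, with 6 in Top2a, 3 in Mki67, 3 in Cdk1 and 2 in Ccnb1, against 10.1% of all promoters. Of 48 promoters of a wider list of mitosis genes, 33.3% had CHR letters and 39.6% at least 2 CCAAT boxes. Of 39 promoters of DNA replication genes, 12.8% and 30.8% did, so the pattern of the members is not that of most such genes. In Cdk1 the match nearest the start site began 15 bases before it, and in Top2a 23 bases before it. The Ccnb1 window held no CHR letters, which says only that these letters are not in this window. The members' promoters ranged in base composition, with a GC content of 71.6% in Mki67, 69.6% in Ccnb1, 56.4% in Cdk1 and 43.6% in Top2a.

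The first comparison asked whether the transcripts of these genes differed in amount between the inputs. None of the 5 was called, whereas Mki67 and Top2a were close to even, Cdk1 and Aurkb had ratios somewhat under 1, and Ccnb1 had the lowest ratio of the group. The values are CPM, counts scaled to the library total. They are not per length, so levels are compared between libraries and not between genes. The entacapone input held 33164576 counts and the vehicle input 24548212. An identifier is called only when its whole interval lies beyond 1.5-fold. Of the 13820 identifiers that averaged at least 1 CPM, 774 (5.6%) were called higher and 348 (2.52%) lower in the entacapone input, 8.12% in either direction, so that 0 of 5 members called is close to that share.

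Mki67 had 568 counts in the entacapone input and 395 in the vehicle input, or 17.1 CPM (15.7 to 18.6) against 16.1 CPM (14.5 to 17.8). The ratio of entacapone over vehicle was 1.06, with an interval of 0.934 to 1.21 that includes no change. On the log2 scale this is 0.09, beside a median of 0.08 over all tested identifiers, so Mki67 lay in the middle of the distribution of ratios.

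Top2a had 390 counts in the entacapone input and 265 in the vehicle input, 11.8 and 10.8 CPM, a ratio of 1.09 (0.930 to 1.28). Cdk1 had 232 and 193 counts, 7.0 CPM in the entacapone input and 7.86 CPM in the vehicle input, a ratio of 0.890 (0.732 to 1.083). Aurkb had 77 counts in the entacapone input and 71 in the vehicle input, 2.32 and 2.89 CPM, a ratio of 0.803 (0.574 to 1.12). The intervals of these 3 ratios also include no change, and the interval of Aurkb, with the fewest counts of the 3, is the widest.

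Ccnb1 was the member whose interval lay wholly on one side of even. It had 55 counts in the entacapone input and 73 in the vehicle input, although the entacapone library was 1.35 times as large, or 1.66 CPM (1.25 to 2.16) against 2.97 CPM (2.33 to 3.74). The ratio was 0.558 (0.386 to 0.802), a log2 ratio of -0.84, lower than that of 97.6% of the tested identifiers. An interval wholly below 1 was found for 2764 (20%) of the 13820 tested identifiers. An interval that included 1, as in the other members, was found for 42.7%, so that excluding 1 is common between these libraries. Every member had fewer counts than the median tested identifier, 809 in the entacapone input and 560 in the vehicle input. Fewer counts give a wider interval. The Ccnb1 interval also did not overlap those of Mki67 and Top2a. Cyclin B1 and its kinase Cdk1 thus had ratios of 0.558 and 0.890, with intervals that overlap.

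**Figure D1:**
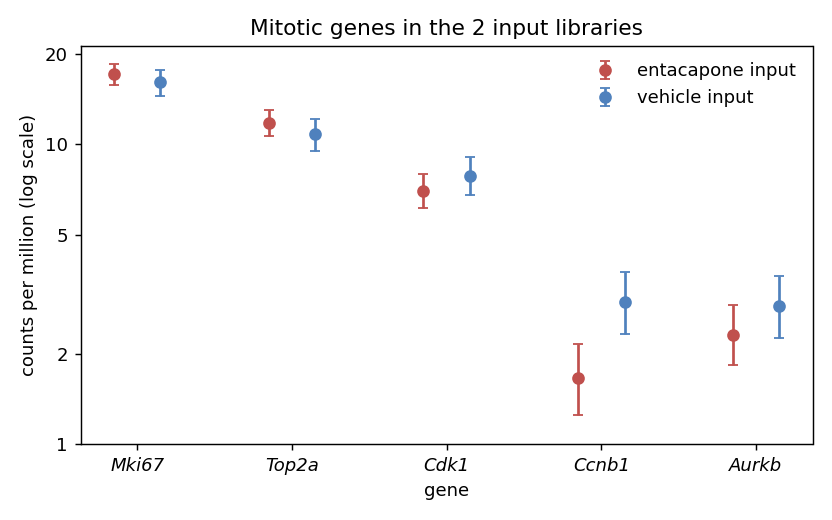
Input level of each gene in CPM, counts scaled to the library total (log axis), entacapone input in red and vehicle input in blue, with bars for the exact Poisson 95% interval of the count. The intervals of the libraries overlap for Mki67, Top2a, Cdk1 and Aurkb, and are apart for Ccnb1, at 1.66 CPM in the entacapone input against 2.97 CPM in the vehicle input.

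Summed over the 5 genes, the entacapone input had 1322 counts and the vehicle input 997, 39.9 and 40.6 CPM. The summed ratio was 0.981 (0.903 to 1.07), which is weighted towards Mki67 and Top2a, the genes with most counts. In bulk tissue, fewer dividing cells and less of a transcript in each dividing cell cannot be told apart.

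**Figure D2:**
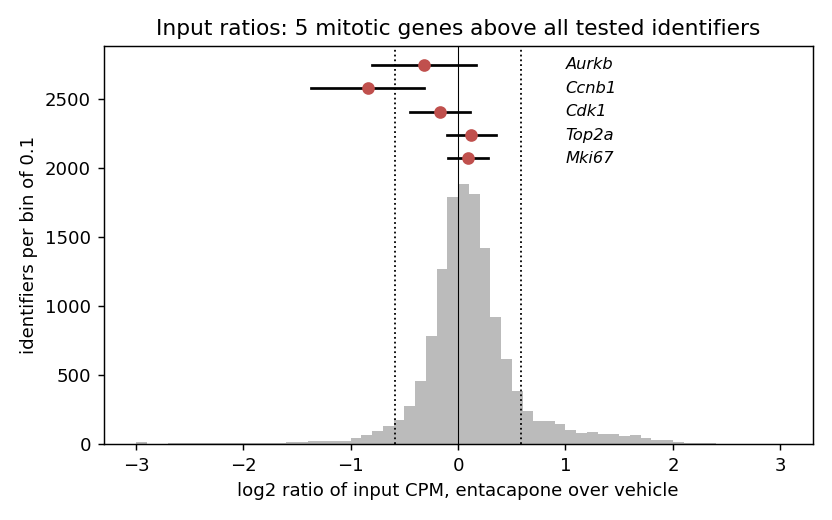
Log2 ratio of input CPM, entacapone over vehicle, for the 5 genes (red points, with black lines for the 95% counting interval) above the histogram of all 13820 tested identifiers in bins of 0.1, with values beyond 3 in the outermost bins. Dotted lines mark 1.5-fold, and no interval of the 5 genes lies wholly beyond either line.

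The second comparison asked where the m6A peaks of these genes lay. The loss was in Mki67: its span on chromosome 7, 135689784 to 135716450, held 4 entacapone peaks and 10 vehicle peaks. The other 4 genes together held 4 entacapone and 3 vehicle peaks. The lists differ in size in the opposite direction, with 1.39 times as many entacapone as vehicle peaks. Of 9001 protein-coding genes with a vehicle peak, 1750 (19.4%) had fewer peaks in the entacapone list, and of the 101 with at least 10 vehicle peaks, 32 (31.7%) did. Mki67, which was chosen for its loss, had the largest fall of all protein-coding genes. At a limit of 6, its own fall, it was the only gene with that many fewer peaks, whereas 66 genes had at least 6 more. This rank describes the choice and is not separate support.

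Of the 10 vehicle peaks of Mki67, 3 overlapped an entacapone peak by at least 1 bp and 7 overlapped none. Over the whole lists, 21.3% of vehicle peaks overlapped no entacapone peak, and 44.1% of entacapone peaks overlapped no vehicle peak, as did 1 of the 4 in Mki67. The closest listed entacapone peak lay 481 to 8935 bp from the 7 vehicle-only peaks. Enrichment too weak to be listed cannot be seen in these lists. Peaks covered 593 bp of the gene in the entacapone list and 1594 bp in the vehicle list. Among the 29 genes with exactly 10 vehicle peaks, the entacapone list held 4 to 23 peaks with a median of 11, and Mki67, chosen for its loss, was the lowest.

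The peaks that were kept lay at the 3′ end of the gene. Mki67 runs on the minus strand, and the 3 shared vehicle peaks lay 0.259, 3.41 and 4.91 kb from the transcript end of the span. The entacapone peaks that overlapped them were at 135690042 to 135690161, 135693221 to 135693325 and 135694614 to 135694909. The 7 vehicle-only peaks lay farther in, 5.73 to 18.1 kb from that end. They comprised a cluster of 3 between 135695446 and 135696059, single peaks at 135697617 to 135697851, 135699371 to 135699509 and 135700674 to 135700799, and an isolated peak at 135707825 to 135707975, which was 8.48 kb from the start site. The entacapone list had 1 peak of its own, at 135698815 to 135698890, between vehicle-only peaks.

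This arrangement was set beside all genes at a limit of 5000 bp from the transcript end, which was chosen after the Mki67 peaks were seen. Within that distance 0 of 3 Mki67 vehicle peaks were vehicle-only, and beyond it 7 of 7 were. Over 7150 genes with a vehicle peak and a known strand, 14.1% of vehicle peaks within 5000 bp and 26.7% of those beyond it were vehicle-only. In the 65 of these genes with at least 10 vehicle peaks, the shares were 14.9% and 22.6%. Distances run along the genome, introns included. The direction in Mki67 was that found over all genes.

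The number given with each peak is read here as the authors' fold enrichment and describes peaks within a list. In the vehicle list the 7 vehicle-only peaks of Mki67 had folds from 2.55 to 5.90 with a median of 4.603, and the 3 shared ones 3.86, 4.11 and 4.14. The weakest vehicle peak of the gene, at 135695446 to 135695574, and its strongest, at 135699371 to 135699509, were thus both vehicle-only. The strongest, with fold 5.90, exceeded 88.6% of all vehicle peaks. In the entacapone list the 3 shared peaks had folds of 2.87, 3.02 and 2.92, and the entacapone-only peak 4.53. Among peaks of fold at least 4, Mki67 had 1 in the entacapone list and 7 in the vehicle list. The whole lists held 9418 such peaks of 31856 in the entacapone list and 7988 of 22860 in the vehicle list. Of the Mki67 vehicle peaks, 5 of 7 with a fold of at least 4 and 2 of 3 below it were vehicle-only. Over all genes with a known strand, 27.4% of vehicle peaks with a fold of at least 4 and 17.1% of those below it were vehicle-only.

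**Figure D3:**
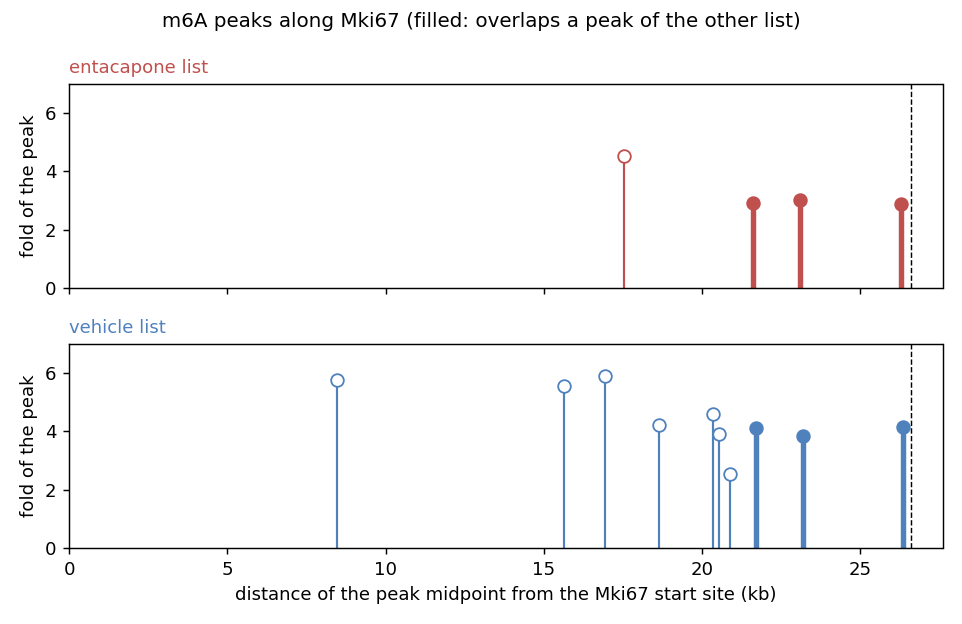
m6A peaks along Mki67 by distance of the peak midpoint from the start site in kb, with the authors' fold as height, entacapone list above and vehicle list below. Filled points overlap a peak of the other list, open points do not, and the dashed line marks the transcript end. The 3 shared vehicle peaks sit nearest the transcript end, and the 7 vehicle-only peaks lie between 8.48 and 20.9 kb from the start site.

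Top2a carried 1 peak in each list, and these overlapped. On chromosome 11 the entacapone peak lay at 98993146 to 98993258 (fold 2.55) and the vehicle peak at 98993068 to 98993281 (fold 2.86). Both midpoints were within 0.255 kb of the transcript end of the 31253 bp span. The Top2a peak thus sat in the same place as the outermost shared peak of Mki67, at the 3′ end.

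Cdk1 carried 2 entacapone peaks and 1 vehicle peak on chromosome 10, and none overlapped. The entacapone peaks lay at 69350054 to 69350179 (fold 2.65) and 69352803 to 69352856 (fold 2.45), the second with its midpoint 0.0825 kb inside the start site. The vehicle peak lay at 69346164 to 69346256 (fold 4.06), 3798 bp from the nearer entacapone peak and 6.70 kb from the start site. Aurkb carried 1 peak in each list on chromosome 11, at 69050344 to 69050410 (fold 5.13) in the entacapone list and 69048731 to 69048851 (fold 5.07) in the vehicle list, 1493 bp apart. Ccnb1 had no peak in either list, which says only that none was listed there. For Cdk1 and Aurkb, similar numbers of peaks thus stood at different positions.

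**Figure D4:**
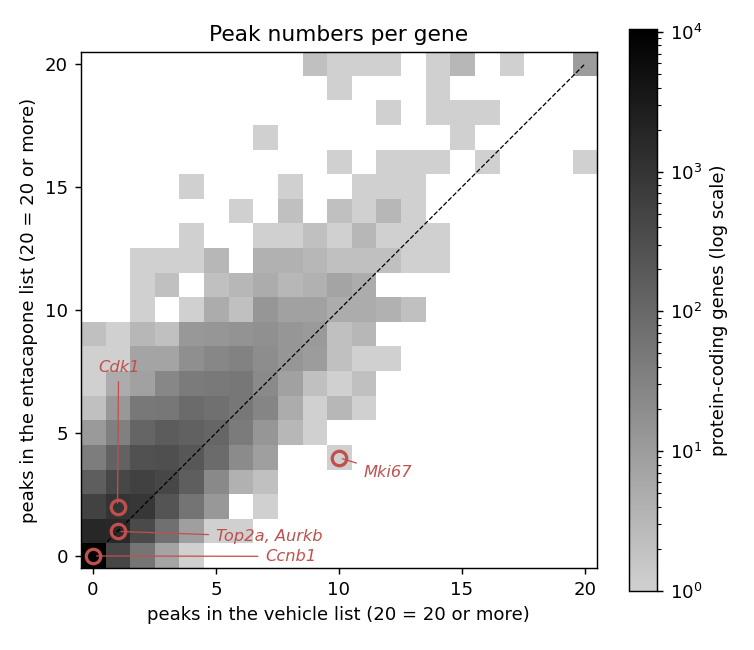
Number of peaks per protein-coding gene in the vehicle list (horizontal) and the entacapone list (vertical), with grey for the number of genes on a log scale, red circles for the 5 genes and a dashed line for equal numbers. Mki67 lies below the line at 4 entacapone and 10 vehicle peaks, Cdk1 at 2 and 1, Top2a and Aurkb at 1 and 1, and Ccnb1 at 0 in both.

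Set side by side, the peak loss of Mki67 was not accompanied by a lower input level. The number of Mki67 peaks in the entacapone list was 0.400 of that in the vehicle list, the loss for which the gene was chosen. Its transcript ratio was 1.06, with a lower bound of 0.934. A number of listed peaks and a ratio of reads are different measures, so their sizes are not compared. The entacapone input, 1.35 times as large as the vehicle input, held 568 Mki67 reads against 395, or 17.1 against 16.1 CPM. Among the other members, Top2a had a similar transcript ratio (1.09) and kept its peak. Cdk1 had a ratio of 0.890 and 1 peak more, but its 1 vehicle peak overlapped no entacapone peak. Aurkb had a ratio of 0.803 and 1 peak in each list, and these did not overlap. Ccnb1, with the lowest ratio (0.558), had no peak to lose. Peak calling also depends on the depth of the IP libraries, which was not analysed here, so its part in the Mki67 loss was not tested. The planned comparison of peak loss with input level over all genes was not made, because neither the count files nor the gene table pairs the other identifiers with names.

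After Mki67, the largest falls were of 5 peaks, in 3 genes chosen after their values were seen. Syne2, which encodes a giant protein of the nuclear envelope, had 2 entacapone and 7 vehicle peaks. Pard3, a cell polarity gene, had 6 and 11 peaks in the entacapone and vehicle lists, and C2cd2 had 1 and 6. A fall of 4 peaks was found in 12 genes, among them the kinesin genes Kif1b (6 entacapone and 10 vehicle peaks) and Kif5a (3 and 7), which carry cargo along axons. None of these is among the mitotic genes listed here.

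The last comparison asked whether other cell cycle genes lost peaks as Mki67 did. With all deposited peaks, no list of cell cycle genes held fewer entacapone than vehicle peaks. With equal numbers of peaks taken by rank from each list, a setting that drops the entacapone peaks of lowest fold alone, 3 of the 5 lists did, with 9 entacapone and 16 vehicle peaks for G1 entry, 14 and 24 for arrest and quiescence, and 5 and 11 for the anaphase-promoting complex, against 47 and 34 for mitosis and 44 and 42 for DNA replication. At a fold of at least 4, G1 entry had 4 entacapone and 6 vehicle peaks, DNA replication 14 and 14, and mitosis 28 and 23. Arrest and quiescence had 3 and 2 at that fold, and the anaphase-promoting complex 2 and 1. Of 53 further mitosis genes, with all deposited peaks, 28 carried an entacapone peak and 21 a vehicle peak, with 51 and 34 peaks. The same held for 50.0% and 41.1% of all 21887 protein-coding genes. Among the 33 with a peak in either list, 19 (57.6%) had more and 8 (24.2%) fewer peaks in the entacapone list. Of the 11464 protein-coding genes with a peak in either list, 55.8% had more and 15.3% fewer. The median difference was 1 peak more in the mitosis list and 1 over all such genes. At a fold of at least 4, the median difference of the mitosis list was 0.

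Anln, which encodes the cytokinesis scaffold anillin, had 4 entacapone and 0 vehicle peaks. Cenpf, a kinetochore gene, had 3 and 0, and Foxm1, the transcription factor of the mitotic programme, had 4 entacapone peaks and 1 vehicle peak. Aurka, the spindle pole relative of Aurkb, went the opposite way with 0 entacapone and 2 vehicle peaks. The other genes of the chromosomal passenger complex, picked for their link to Aurkb, had 5 entacapone and 4 vehicle peaks in Incenp, 1 and 1 in Birc5, and 1 and 2 in Cdca8. With all deposited peaks, the largest falls among the cell cycle lists were of 2 peaks, against 6 in Mki67. A gene cannot lose more peaks than it has in the vehicle list. Chaf1a had the most vehicle peaks of these lists, 6, and would have had to lose all of them to fall as far as Mki67. The remaining listed genes had fewer vehicle peaks and could not have fallen that far.

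Of 40 DNA replication genes, 31 had an entacapone peak and 25 a vehicle peak, beside 50.0% and 41.1% of all protein-coding genes. Among the 34 with a peak in either list, 14 (41.2%) had more and 6 (17.6%) fewer peaks in the entacapone list. Over all protein-coding genes with a peak in either list, 55.8% had more and 15.3% fewer. The median difference was 0 in the DNA replication list and 1 over all such genes. Lig1, the replicative DNA ligase, had 7 entacapone and 4 vehicle peaks, Helb, a helicase, 5 and 3, and Pole, a DNA polymerase subunit, 3 and 1. Chaf1a, a histone chaperone of replicating chromatin, had 4 entacapone and 6 vehicle peaks.

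Genes of entry into the cycle and of arrest had similar numbers of peaks in the lists as deposited, and those of the anaphase-promoting complex had more in the entacapone list. More entacapone peaks were found in 42.9%, 42.1% and 50.0% of these genes with a peak in either list, against 55.8% over all protein-coding genes with a peak. Fewer were found in 42.9%, 26.3% and 10.0%, against 15.3%. Similar numbers thus lie under the general excess of entacapone peaks. Of 9 G1 entry genes, 7 had a peak in each list, with 16 peaks in both, and Ccnd1 and Ccnd3, the D-type cyclins, each had 1 entacapone and 2 vehicle peaks. Ccnd2 and E2f3 each had 3 entacapone and 2 vehicle peaks. Of 23 genes of arrest and quiescence, 17 had an entacapone and 15 a vehicle peak, with 27 and 24 peaks. Rb1, the retinoblastoma gene, had 2 entacapone and 4 vehicle peaks and Lin54, the DNA-binding subunit of the complex that recognises the CHR, 1 and 3, while Cdkn2a and Tob1, genes of arrest, had 2 and 0 each. Of 12 genes of the anaphase-promoting complex (APC/C) and its regulators, which mark cyclin B1 for destruction, 9 had an entacapone and 8 a vehicle peak, with 18 and 11 peaks. Anapc1 had 5 entacapone and 2 vehicle peaks, Cdc27 had 3 and 1, Anapc2 had 2 and 1, and Anapc10 had 0 and 1.

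**Figure D5:**
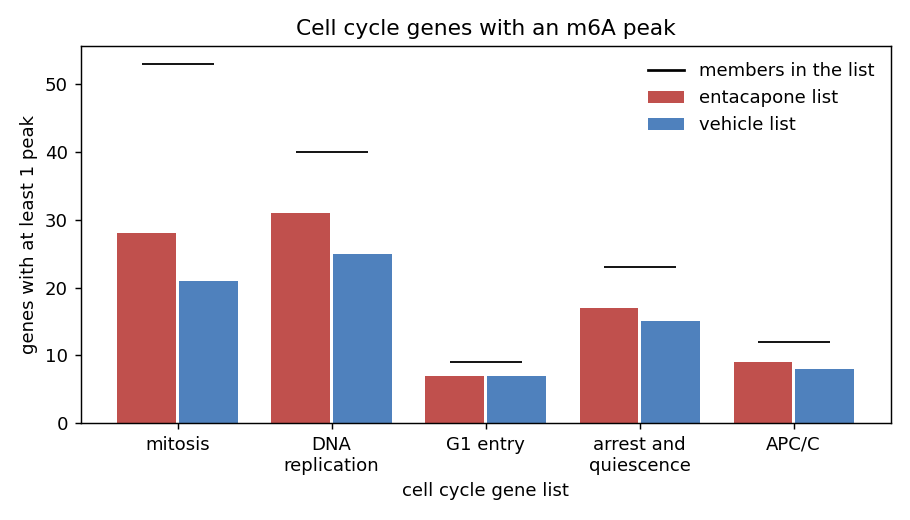
Number of genes with at least 1 m6A peak in the entacapone list (red) and the vehicle list (blue) for 5 cell cycle gene lists, with a black line at the number of genes in each list. The mitosis list has 28 and 21 such genes, DNA replication 31 and 25, and G1 entry 7 and 7.

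Markers of cell types that could supply dividing cells were read from the peaks, since their input counts could not be named. B cell and germinal centre markers had 18 entacapone and 6 vehicle peaks over 5 genes, with Pax5 at 9 and 4. The 4 matched T cell markers of 5 had 7 and 2 peaks, 4 endothelial markers 17 and 3, 4 adipose progenitor markers 6 and 5, and 5 macrophage markers 1 and 1. Of 5 adipocyte markers, 3 had a peak in each list, with 9 entacapone and 6 vehicle peaks. Epithelial markers had 5 and 4 peaks and muscle markers 5 and 6. These sums depend on the peaks kept. With equal numbers of peaks by rank, macrophage markers had 0 entacapone peaks and 1 vehicle peak, muscle markers 3 and 6, adipose progenitor markers 3 and 5 and adipocyte markers 4 and 6. At a fold of at least 4, T cell markers had 0 and 2, muscle markers 0 and 1 and adipose progenitor markers 2 and 4. Other lists kept more entacapone peaks. B cell and germinal centre markers had 13 and 6 by rank and 8 and 5 at a fold of at least 4. Endothelial markers had 7 and 3 by rank and 4 and 1 at that fold, and epithelial markers 5 and 4, then 3 and 2. T cell markers had 4 and 2 by rank. The part of cell make-up in the Mki67 peaks was not tested.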

How the data were processed

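Input and m6A IP libraries of 1 entacapone and 1 vehicle sample each were used. The input values are raw read counts per Ensembl identifier, deposited by the authors without normalization. The peak lists hold a position and a number without a header, read here as the authors' deposited fold enrichment on a linear scale, the ratio IP/input. TopHat2 2.1.1 and MACS2 with mm10 are named per the submitters' processing notes; the counter, annotation release and peak threshold are in none of the sources used. Whether starts count from 0 or 1 is not stated, so coordinates are as deposited.

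Counts were scaled to library totals (33164576 entacapone, 24548212 vehicle). Log2 ratios used a prior of 0.5 counts, with exact conditional (Clopper-Pearson) intervals. TMM and upper quartile factors (edgeR 4.0.16) and DESeq2 1.42.0 size factors served as alternatives. The interval and overlap code was tested on simulated data. Reads are not independent molecules, so intervals cover counting error only. Gene spans, strands and promoters came from RefSeq tables of GRCm38.p6; a peak counts for every protein-coding span that holds its midpoint. The 5 identifiers are named by the list that defined them; the other identifiers stay unnamed, so input medians of the wider lists, the genes most like Mki67 and the comparison of peak loss with input level over all genes were not computed.

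Members and lists were chosen with earlier results of these data known. Named list genes are the 4 per list with the largest difference in peak number, ties by name; of the cell type lists only summed values and 1 example are given, and 1 planned marker is not reported here.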

Additional observations from a re-analysis of the deposited data

How the results depend on the processing

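Each group is 1 library, so no difference has a replicate check, and the shallow counts of Ccnb1 and Aurkb limit their ratios to wide intervals. No paired analysis was possible because each treatment has 1 library of each kind. None of the 5 genes was called under any of 7 alternatives for the inputs, and the Mki67 log2 ratio was between 0.01 and 0.09. With a call beyond 2-fold, 343 identifiers were higher and 167 lower. Mki67 kept 10 vehicle peaks, except at a fold of at least 4, where it had 1 entacapone and 7 vehicle peaks. At a reciprocal overlap of 50%, 2 entacapone and 8 vehicle peaks of Mki67 were in 1 list alone. With equal numbers of peaks taken by rank, which drops the entacapone peaks of lowest fold, Mki67 had 4 and 10. Under that setting the mitosis list had 27 members with an entacapone peak and 21 with a vehicle peak, arrest and quiescence turned to 11 and 15, G1 entry to 5 and 7 and APC/C to 4 and 8. Medians of the wider lists in the inputs, and peak loss by input level over all genes, were not run because identifiers could not be named.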
